A study of Mus musculus with 10 samples.

Results

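The comparison described here sets TX1072 cells treated with doxycycline (DOX) for 4 h against the same cells at 0 h, and it uses 4 of the 10 samples of a DOX time course, 2 labelled 4h_Dox and 2 labelled 0h_Dox, chosen by those labels. TX1072 is a female mouse embryonic stem cell (ESC) line from a cross of Mus musculus castaneus (Cast) with C57BL/6 (B6), and on its B6 X chromosome the native Xist gene was placed under a promoter that DOX switches on. All groups carry this allele and are otherwise wild type, were grown in medium with serum, LIF and the 2i inhibitors, and 24 h after plating received DOX at 1 µg/ml, or none for the 0 h group. The other samples were taken at 8, 12 and 24 h of DOX and enter only where they are named. New RNA was labelled for 5 min with 0.5 mM 4-thiouridine and sequenced (TT-seq), so a value reflects RNA made within minutes of the harvest and includes introns. The line is 1 clone, and there was no sample with DOX but without an inducible Xist, so an effect of Xist RNA, an effect of the drug and an effect of 4 h more in culture cannot be told apart.

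Xist is the long noncoding RNA that starts X chromosome inactivation. It is transcribed from the chromosome that it will silence, spreads along it from its own locus, and acts through proteins such as SPEN to stop transcription of the genes in cis. The other X chromosome stays active and serves as an internal control in hybrid cells, where sequence variants tell the alleles apart. Genes that remain transcribed from an inactivated X are called escape genes. DOX is a tetracycline antibiotic, a class that also inhibits protein synthesis in mitochondria, so autosomal genes of mitochondrial and stress pathways are of interest beside the X.

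The 2 libraries of the 0 h group held 20884330 and 21929758 reads counted in genes, and the 2 of the 4 h group held 18809046 and 19296979. Replicate 1 of the 0 h group stood apart from the other 3 libraries. It had 49.2% of its reads assigned to an allele against 51.7% to 52.6%, and its counts differed from those of replicate 2 by a chi-square of 10.8 per degree of freedom against 5.81 between the 4 h replicates. Results that rest on it are given below with and without it. The markers of ESCs were present. Nanog was at 289 to 313 counts per 1000000 reads (CPM) in the 4 libraries, Esrrb at 984 to 1082 CPM and Zfp42 at 315 to 322 CPM, while the 16 markers of 2-cell-like cells summed to 22.0 to 24.4 CPM and the 10 trophectoderm markers to 21.0 to 28.0 CPM. The markers of other cells gave similar sums in both groups, 535 to 600 CPM for 14 primitive endoderm genes and 75.9 to 93.7 CPM for 14 fibroblast genes. Sox2, a defining ESC gene, was listed at 0 in all 4 libraries, while Sox2ot, the longer transcript whose gene span covers it, was at 94.2 to 97.0 CPM.

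Xist had the largest change of all genes tested for total counts. It had 32 and 31 reads at 0 h and 8419 and 6348 reads at 4 h, or 1.53 and 1.41 CPM against 448 and 329 CPM. Both 4 h libraries were thus far above both 0 h libraries. The fitted change of total counts was 8.05 on the log2 scale (SE 0.25, adjusted p = 5.35e-11, edgeR's quasi-likelihood test). Of the allelic Xist reads at 4 h, 3764 of 3771 and 2936 of 2942 came from the B6 allele, shares of 0.998 in each library. The 95% Wilson intervals, which cover counting error only, ran from 0.996 to 0.999 in both. At 0 h only 12 and 13 allelic Xist reads were seen, too few to place the share more closely than 0.468 to 0.911 and 0.355 to 0.823. Xist lies at chrX:103460373-103483233 (mm10, minus strand), and Tsix, on the other strand, is counted apart from it because reads were assigned by strand. Its mean was 388 ± 83.9 CPM here and reached 571 ± 131 CPM in the 8 h group (SD, n = 2 each).

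The B6 X chromosome as a whole lost transcription in this interval, and the Cast X chromosome did not show a loss. The d-score, the B6 share of a gene's allelic reads, had a median over 337 X-linked genes of 0.500 and 0.494 at 0 h and of 0.465 and 0.459 at 4 h. Both 4 h values lay below both 0 h values, a difference of -0.0345 ± 0.00631 (SD of the difference, n = 2 per group). The median over 10337 autosomal genes was 0.519 and 0.522 at 0 h and 0.522 in both 4 h libraries. An exact two-sided permutation test gave p = 0.33 for the X-linked difference, the smallest value that 2 samples against 2 allow. X-linked B6 reads, as a percentage of autosomal B6 reads, were 3.32% and 3.36% at 0 h and 2.97% and 2.95% at 4 h, a relative change of -11.5%. The same measure for Cast was 3.51% and 3.78% at 0 h and 3.70% and 3.80% at 4 h. These groups overlapped, and the low value was that of the 0 h library that stood apart. Without it the Cast difference turned from 0.104 to -0.0294 percentage points, so no direction can be given for the Cast X. In bulk samples like these, a loss in some of the cells and a smaller loss in every cell cannot be told apart.

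Which X-linked genes lost their B6 share first was asked gene by gene, in a test of the log2 ratio of B6 to Cast reads with an adjusted p under 0.05 as the threshold. Of 362 X-linked genes tested, 41 fell and 0 rose, and 117 fell with 0 rising at an unadjusted p under 0.05. Over all 11906 genes tested, 0.344% passed the threshold as lower and 2.86% passed it unadjusted. Among 11543 autosomal genes 0 fell and 1 rose, with 223 lower and 254 higher unadjusted. The median change was -0.20 on the log2 scale over the X-linked genes and 0.01 over the autosomal genes, and 78.7% of X-linked genes had a negative change. In all 41 genes both 4 h d-scores lay below both 0 h d-scores. That was so in 177 of the 362 X-linked genes (48.9%), in 14.7% of autosomal genes and in 15.7% of all genes. The changes of the 41 genes ran from -0.22 to -1.25 with a median of -0.49. The last genes inside the threshold were Phka1 (adjusted p = 0.0420, edgeR) and Vbp1 (0.0425), and the first outside it were Fhl1 (0.0650) and Wnk3 (0.0693). The count was 22 without 0 h replicate 1 and 23 without 4 h replicate 2, and 19 of the 41 genes passed whichever of the 4 libraries was left out. DESeq2 called 13 genes, all among the 41.

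Among the 41 genes Rlim had the largest fall. It encodes an E3 ubiquitin ligase (RNF12) that removes the pluripotency factor REX1 and so promotes Xist transcription, and it lies at chrX:103957167-103981284, 0.498 Mb from the start of Xist. Its d-score was 0.517 and 0.516 at 0 h (875 of 1691 and 1112 of 2155 allelic reads) and 0.296 and 0.322 at 4 h (326 of 1102 and 403 of 1252). The 95% Wilson intervals, 0.494 to 0.541 and 0.495 to 0.537 at 0 h against 0.270 to 0.323 and 0.297 to 0.348 at 4 h, left a wide gap. The log2 ratio changed by -1.25 (SE 0.09, adjusted p = 5.05e-23, edgeR). Per 1000000 autosomal reads of the same allele, Rlim had 170 and 192 B6 reads at 0 h and 66.5 and 79.3 at 4 h. The Cast allele gave 171 and 195 at 0 h and 172 and 182 at 4 h. The loss was thus on the B6 allele, with Cast levels that overlapped between the groups.

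The X-linked promoters of Rlim and Kdm6a are shown because the former fell most among the 41 genes and the latter was among the genes that changed least. That rank of Kdm6a is among X-linked genes with at least 500 allelic reads per library. Kdm6a is an escape gene that encodes an H3K27 demethylase. The 250 bases upstream of each start are from RefSeq (GRCm38.p6), chrX:103981286-103981535 on the minus strand for Rlim and chrX:18162325-18162574 on the plus strand for Kdm6a, with each CG in capitals.
Rlim: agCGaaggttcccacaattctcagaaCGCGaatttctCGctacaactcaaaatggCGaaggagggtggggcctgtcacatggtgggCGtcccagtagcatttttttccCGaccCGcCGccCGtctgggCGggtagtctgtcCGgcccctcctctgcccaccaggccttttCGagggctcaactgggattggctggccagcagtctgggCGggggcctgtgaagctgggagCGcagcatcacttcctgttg
Kdm6a: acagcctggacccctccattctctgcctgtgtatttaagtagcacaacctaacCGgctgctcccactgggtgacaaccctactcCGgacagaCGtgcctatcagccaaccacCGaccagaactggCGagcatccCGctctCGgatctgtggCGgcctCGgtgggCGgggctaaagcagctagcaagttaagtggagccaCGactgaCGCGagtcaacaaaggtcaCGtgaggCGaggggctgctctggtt
Each held 15 CG dinucleotides, at 61.2% G and C for Rlim and 59.6% for Kdm6a, the same number in the gene that fell most among the 41 and in one that was not called. The median over 310 tested X-linked genes with a promoter in the table was 12, and it was 6 over all 27025 genes with one. The median was 12 both in the 35 of the 41 genes with a promoter in the table and in the 275 of the other 321.

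Listed neighbours of Xist along the chromosome are described first. Of 19 neighbours counted, 11 had enough allelic reads, and 7 of these fell, where 11.3% of all X-linked genes did. The median change of the 11 was -0.60 against -0.20 over all X-linked genes. All 11 changes were negative, as were 78.7% of those of X-linked genes. The list leaves out other genes near Xist, such as Phka1, Hdac8 and Taf1. Of all 20 genes tested within 2 Mb, 10 fell, with a median change of -0.54. Tsix, the antisense transcript that represses Xist in cis, had d-scores of 0.533 and 0.513 at 0 h and 0.385 and 0.403 at 4 h. Both 4 h values were lower, and the log2 ratio changed by -0.75 (SE 0.06, adjusted p = 1.72e-18, edgeR). Chic1, between Tsix and the centromere, went from 0.585 and 0.546 to 0.457 and 0.472. Zdhhc15, a palmitoyltransferase, went from 0.564 and 0.579 to 0.483 and 0.463. In each of these genes the groups were apart, and of these only Zdhhc15 lost its call when 1 library was left out. Magt1, which takes part in protein glycosylation, and Atrx, a chromatin remodeller, completed the 7, with changes of -0.52 and -0.29.

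The 4 neighbours that did not pass the threshold had negative changes too. Ftx, a noncoding activator of Xist, had d-scores of 0.601 and 0.635 at 0 h and 0.464 and 0.500 at 4 h, with a change of -0.80 (SE 0.21, adjusted p = 0.0791, edgeR). Uprt changed by -0.88 (SE 0.31) and Nap1l2 by -1.12 (SE 0.66), with standard errors above the 0.09 of Rlim. Pbdc1, an escape gene, changed by -0.16 (SE 0.08). Taf1, which encodes the largest subunit of TFIID, lies 1.95 Mb from Xist. Of the X-linked genes with at least 500 allelic reads per library, it was among those with the smallest changes. Its d-scores of 0.415 and 0.387 at 0 h enclosed the 0.398 of both 4 h libraries.

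**Figure D1:**
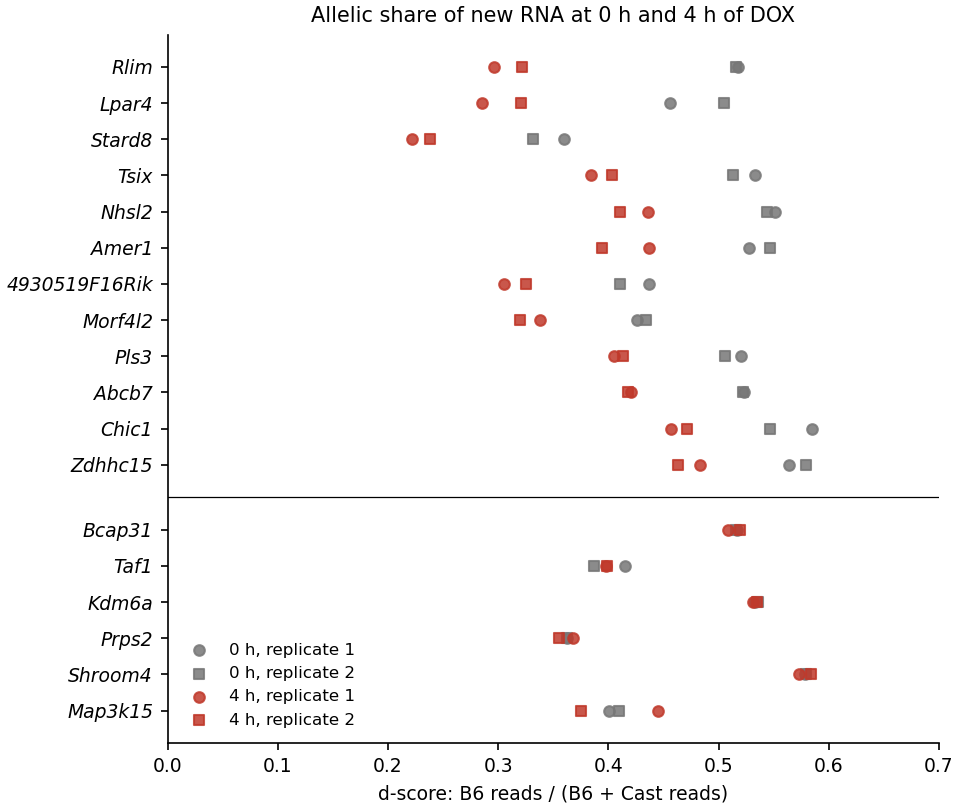
The d-score (horizontal axis, B6 reads over B6 plus Cast reads) is shown in each of the 4 samples for the 12 X-linked genes with the largest fall among those past the threshold (above the line) and the 6 X-linked genes with the smallest change among those with at least 500 allelic reads per library (below it). Grey points are 0 h and red points 4 h, with circles for replicate 1 and squares for replicate 2; in the upper genes all red points lie left of the grey points, and in the lower ones they mix.

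Outside the list of neighbours the genes that fell included several regulators. Over all 362 X-linked genes 11.3% fell and 78.7% had negative changes, with a median of -0.20. Of 8 tested X-linked genes of pluripotency and signalling, 4 fell and all 8 had negative changes (median -0.42). Beside Rlim these were Amer1, which binds APC and regulates Wnt signalling (d-scores 0.528 and 0.547 to 0.437 and 0.395), and the zinc-finger factors Klf8 (0.459 and 0.441 to 0.386 and 0.359) and Zfx (0.504 and 0.520 to 0.449 and 0.445). Amer1 lost its call whichever of the 4 libraries was left out, Zfx lost it without 0 h replicate 2 or 4 h replicate 2, and Klf8 kept it. Of 18 tested X-linked chromatin genes 5 fell, and all 18 had negative changes, with a median of -0.24 that was close to that of the chromosome. Morf4l2, a subunit of histone acetyltransferase complexes, went from 0.426 and 0.434 to 0.338 and 0.320, although it lies 33.3 Mb from Xist. Rbbp7, the histone-binding subunit shared by deacetylase and Polycomb complexes, went from 0.377 and 0.330 to 0.281 and 0.272 at 59.3 Mb. Hdac8, a histone deacetylase, lies 0.978 Mb from Xist and went from 0.529 and 0.491 to 0.429 and 0.435. Smc1a, a cohesin subunit, went from 0.511 and 0.482 to 0.462 and 0.415. Hdac8 and Smc1a were not among the 19 genes that held whichever library was left out.

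The other large falls were spread over functions. Lpar4, a receptor for lysophosphatidic acid, went from 0.456 and 0.505 to 0.286 and 0.321. It had only 134 to 200 allelic reads per library, and its change of -1.11 (SE 0.26, adjusted p = 0.0165, edgeR) was the second largest among the 41 genes. Stard8, a GTPase-activating protein, went from 0.359 and 0.332 to 0.222 and 0.238. Nhsl2 went from 0.551 and 0.544 to 0.436 and 0.411, and Pls3, which bundles actin filaments, from 0.520 and 0.506 to 0.405 and 0.413. Nhsl2 and Pls3 were among the 19 genes that held whichever library was left out, and Lpar4 and Stard8 were not. Among the 13 genes that the study used as examples, 5 fell and all 13 had negative changes. That list was chosen by the study on samples that include these and is no independent evidence of direction. The glycolytic enzyme gene Pgk1 went from 0.485 and 0.456 to 0.377 and 0.398, the pyruvate dehydrogenase kinase gene Pdk3 from 0.508 and 0.481 to 0.390 and 0.432, and the ubiquitin ligase gene Huwe1, the smallest change past the threshold, from 0.470 and 0.442 to 0.430 and 0.407. Neither Huwe1 nor Pdk3 held its call without 0 h replicate 1.

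Of 10 tested genes known to escape X inactivation 0 passed, 4 were lower at an unadjusted p under 0.05, 8 had a negative change and the median was -0.10. Over all X-linked genes 11.3% passed, 32.3% were lower before adjustment and 78.7% were negative, shares near those of the list. Kdm6a had d-scores of 0.533 and 0.536 at 0 h and 0.531 and 0.535 at 4 h, a change of -0.01 (SE 0.04). Its groups overlapped at an SE below that of Rlim. Kdm5c, a histone demethylase, went from 0.494 and 0.470 to 0.453 and 0.427 (adjusted p = 0.634, edgeR), and Eif2s3x, a subunit of translation initiation factor 2, from 0.543 and 0.515 to 0.492 in both libraries (adjusted p = 0.669, edgeR). In both of these the groups did not overlap. The lowest change of the list was the -0.80 of Ftx, given above with the neighbours of Xist. Among X-linked genes with at least 500 allelic reads per library, those with the smallest changes beside Kdm6a and Taf1 were Map3k15, Shroom4, Prps2 and Bcap31. None of these is on the list of escape genes.

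The 41 genes lay nearer to Xist than the rest. The median distance of their start from that of Xist was 9.70 Mb against 46.7 Mb for the other 321, and 22 of 41 (53.7%) lay within 10 Mb against 48 of 321 (15.0%). They were found on both sides, 20 towards the centromere, where 217 of the 362 tested genes lie. By distance, 10 of 20 genes fell within 2 Mb, 7 of 25 from 2 to 5 Mb, 5 of 25 from 5 to 10 Mb, 9 of 108 from 20 to 40 Mb, 8 of 104 from 40 to 60 Mb and 0 of 77 beyond 60 Mb. Only 3 genes lay from 10 to 20 Mb, of which 2 fell, and their median change of -0.57 was the lowest of all intervals. The median change of all genes in an interval does not depend on the threshold and otherwise went from -0.54 within 2 Mb to -0.21 at 40 to 60 Mb and -0.04 beyond 60 Mb. The farthest of the 41 was Rbbp7.

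**Figure D2:**
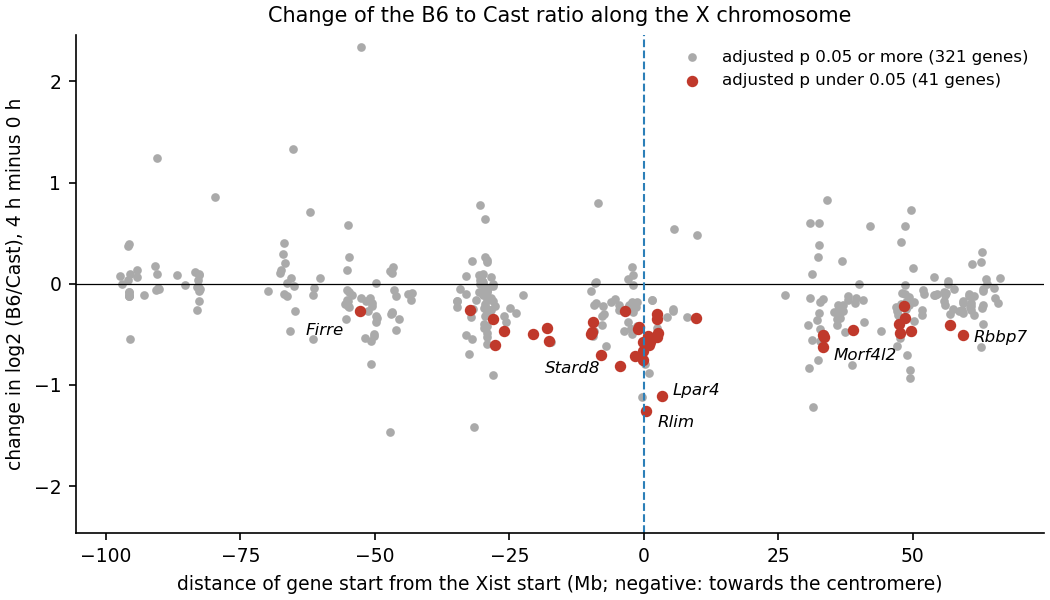
Each point is 1 of 362 X-linked genes, placed by the distance of its start from the Xist start (horizontal axis, Mb) and by the change of its log2 B6 to Cast ratio from 0 h to 4 h (vertical axis); red points are the 41 genes with an adjusted p under 0.05. The red points gather near the dashed line at Xist and none lies beyond 59.3 Mb.

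**Figure D3:**
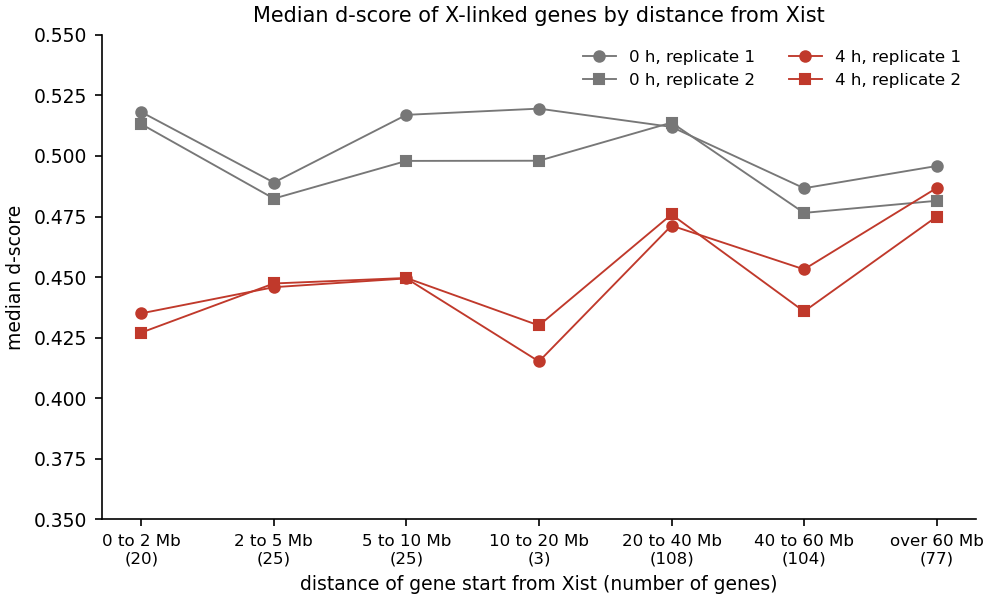
The median d-score (vertical axis, which does not start at 0) of X-linked genes is drawn for each of the 4 samples over intervals of distance from Xist (horizontal axis, with the number of genes). Within 2 Mb the medians were 0.518 and 0.513 at 0 h and 0.435 and 0.427 at 4 h, and beyond 60 Mb they were 0.496 and 0.481 at 0 h and 0.487 and 0.475 at 4 h.

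The 41 genes were also those measured best. Their lowest allelic count over the 4 libraries had a median of 1254 reads against 212 for the other X-linked genes, and 38 of them had at least 500, as 141 of the 362 genes did. Split by this count into a low, a middle and a high group, 0 of 120, 5 of 121 and 36 of 121 genes fell, while the median change was -0.16, -0.21 and -0.22. The number of genes past the threshold thus rose with this count, while the median change moved little. Genes within 2 Mb of Xist had a median of 856.5 allelic reads and those beyond 60 Mb 215. Split in the same way by gene span, 3, 13 and 25 genes fell, and by CPM per kb at 0 h 6, 17 and 18. The part that depth has in the distance and length of the called genes was not tested. Of the 41, 36 were protein coding, and Tsix, Firre and BC065397 were among the noncoding ones.

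Which allele changed was asked by fitting each allele alone, scaled to the autosomal reads of that allele. All 41 genes had a negative B6 change (median -0.38, from -1.29 to -0.12), and 36 had a positive Cast change (median 0.09, from -0.10 to 0.30). A ratio selects for both, so the values over all X-linked genes are the ones to read. The median change of the B6 count was -0.18 over 362 X-linked genes, 290 of them negative, and that of the Cast count was 0.03, with 149 negative. Over autosomal genes the medians were 0.0003 and 0.0001. The median SE over X-linked genes was 0.16 for the B6 count, 0.15 for the Cast count and 0.18 for the ratio. Rlim had an SE of 0.12 for the B6 count against 0.09 for the ratio, and Tsix 0.11 against 0.06. For the B6 count 2 X-linked genes passed the threshold (0.0168% of all genes), Rlim with -1.29 (SE 0.12, adjusted p = 1.31e-06, edgeR) and Tsix with -0.73 (SE 0.11, adjusted p = 0.00224). With the replicate number as a block, which takes out differences shared by replicates of the same number, 28 X-linked genes were lower for the B6 count, 23 of them among the 41. The B6 count of Tsix lost its call without 4 h replicate 1, when only Rlim remained, and 4 genes passed without 0 h replicate 2. For the Cast count 0.0% of all genes passed by edgeR, with 4 X-linked genes lower and 7 higher at an unadjusted p under 0.05, and limma voom also called 0.

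**Figure D4:**
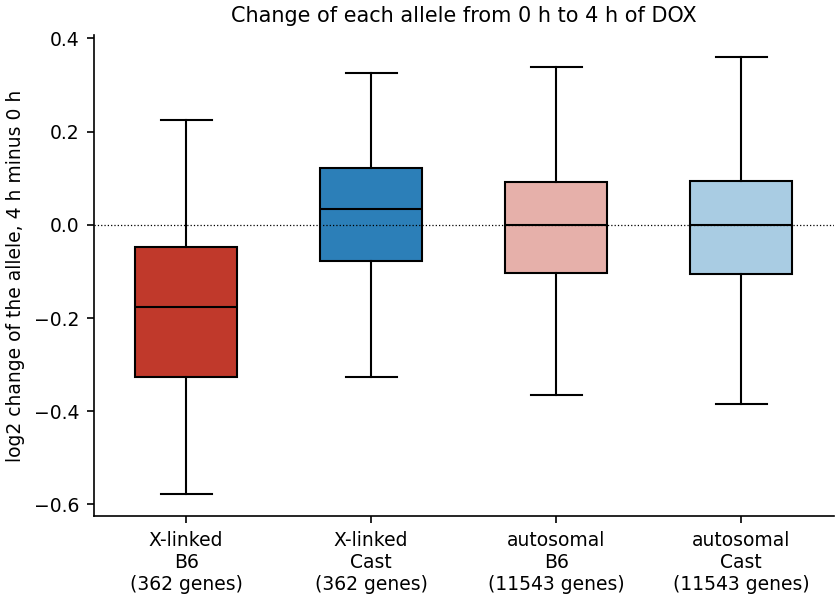
Boxes show the log2 change of each allele's count from 0 h to 4 h (vertical axis) over 362 X-linked and 11543 autosomal genes, with the median, the quartiles and whiskers at the 5th and 95th percentile. The box of the X-linked B6 allele has its median at -0.18 and lies below 0, while the other 3 boxes straddle 0.

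In total counts, which sum the alleles and the reads that cannot be assigned, the change was diluted. Of 502 X-linked genes tested, 0 passed the threshold by edgeR in either direction, and with a p under 0.05 before adjustment 34 were lower and 1 was higher, where 1.2% of all 14525 genes were lower and 0.895% higher. The median change was -0.08, with 74.3% of genes negative, against 0.0031 over 14019 autosomal genes. X-linked reads went from 4.68% and 4.75% of autosomal reads at 0 h to 4.50% and 4.52% at 4 h, and both 4 h values were lower. Rlim had 226 and 249 CPM at 0 h and 159 and 172 CPM at 4 h, a change of -0.50 (SE 0.08, adjusted p = 0.109, edgeR). It passed with the replicate block (adjusted p = 3.46e-05), and DESeq2 called it too. Jpx, a noncoding activator of Xist, had 13 and 12 reads at 0 h and 4 and 5 at 4 h, too few for a call (change -1.26, SE 0.60).

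Most of the genes that had fallen by 4 h fell further by 8 h. In a test of 8 h against 4 h, which shares the 4 h libraries with the main comparison, 37 of the 41 were lower again. In this test 1.18% of all genes and 136 of the 362 X-linked genes were lower. The 4 others were Lpar4, Stard8, Amer1 and 4930519F16Rik, a transcribed pseudogene beside Xist, whose changes from 4 h to 8 h were -0.84, -0.65, -0.48 and -0.18. As a description, the fall in d-score reached by 4 h was a median of 30.0% of that reached by 24 h over the 41 genes. It was 83.6% for 4930519F16Rik, 65.6% for Tsix and 59.2% for Rlim, and 12.7% for Firre, a noncoding RNA gene 52.8 Mb from Xist. The mean d-score of Rlim was 0.309 ± 0.0184 in the 4 h group (SD, n = 2), then 0.210 after 8 h and 0.165 after 24 h, while Tsix went from 0.394 ± 0.0132 to 0.329 and 0.326.

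Whether autosomal genes responded within 4 h was asked in the same tests. Of 14019 autosomal genes 1 passed the threshold for total counts, Ndrg1, and with Xist it made 0.0138% of all genes. Without adjustment, 128 autosomal genes were higher and 140 were lower. Ndrg1, a gene known to be induced by hypoxia, is on chromosome 15 and had 335 and 327 reads (16.0 and 14.9 CPM) at 0 h and 557 and 494 reads (29.6 and 25.6 CPM) at 4 h. Both 4 h values were higher, by 0.85 on the log2 scale (SE 0.12, adjusted p = 0.0171, edgeR). The call was lost when any 1 of the 4 libraries was left out, with adjusted p from 0.0653 to 0.538, and the change stayed between 0.77 and 0.93. With the replicate block the adjusted p was 4.05e-06, and 2 more genes passed as higher, Bnip3 and A2m. Both alleles of Ndrg1 were higher, with 39.8 and 34.3 B6 reads on that scale at 0 h against 57.6 and 53.7 at 4 h, and 10.2 and 9.37 Cast reads against 28.4 and 21.2. In the fits of 1 allele Ndrg1 did not pass for either, and with the replicate block it passed for both, as Bnip3 did.

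Some other genes known for their response to low oxygen ranked high by p as well. Of 22 tested genes of glycolysis and hypoxia 1 passed (Ndrg1), and 4 were higher and 0 were lower with a p under 0.05 before adjustment. Over all 14525 genes tested 0.0138% passed, and 0.895% were higher and 1.2% lower before adjustment. The median change of the list was 0.11 against 0.0031 over all autosomal genes. Bnip3, a mitophagy receptor of the outer mitochondrial membrane, had 20.3 and 18.9 CPM at 0 h and 32.1 and 25.9 CPM at 4 h, a change of 0.58 (SE 0.14, adjusted p = 1.00, edgeR; 0.0270 with the replicate block). Egln3, a prolyl hydroxylase of the hypoxia-inducible factors, had 20.5 and 18.4 CPM and then 28.0 and 23.8 CPM. Slc2a1, the glucose transporter GLUT1, had 310 and 293 CPM and then 358 and 312 CPM. The main test did not call these 3 genes. P4ha1, a collagen prolyl hydroxylase (82.4 and 85.5 CPM, then 104 and 97.6 CPM), and Anxa2 (5.89 and 4.92 CPM, then 8.19 and 8.81 CPM), which are not on the list, came next after Bnip3 by p among the autosomal genes that were higher. Over the list 15 changes were positive and 7 negative, where 48.9% of all autosomal genes were negative. Other members had changes near or below their SE. These included Vegfa at 0.13 (SE 0.16), Pdk1 at 0.14 (SE 0.15), Ankrd37 at 0.20 (SE 0.19) and Ldha at -0.02 (SE 0.09). The glycolytic enzyme gene Gapdh was at 317 and 298 CPM and then 281 and 288 CPM, and Pkm at 815 and 778 CPM and then 811 and 781 CPM.

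In these libraries the higher levels stood at 4 h, although 4 h was not tested against the later times for total counts. After 8, 12 and 24 h the mean CPM of Ndrg1 was 18.9 ± 2.13, 18.4 ± 1.80 and 16.1 ± 0.0931 (SD, n = 2 each), and that of Bnip3 was 19.7 ± 2.01, 18.9 ± 4.25 and 21.0 ± 2.13. Counted after the values were seen, 6 of the 22 genes (Hk2, Pfkfb3, Slc2a1, Bnip3, Egln3 and Ndrg1) had both 4 h values above all 8 other libraries, where 195 of 14019 autosomal genes (1.39%) did. Some of these margins were small, as for Slc2a1 with 312 CPM against 310 and Pfkfb3 with 82.9 CPM against 81.9.

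**Figure D5:**
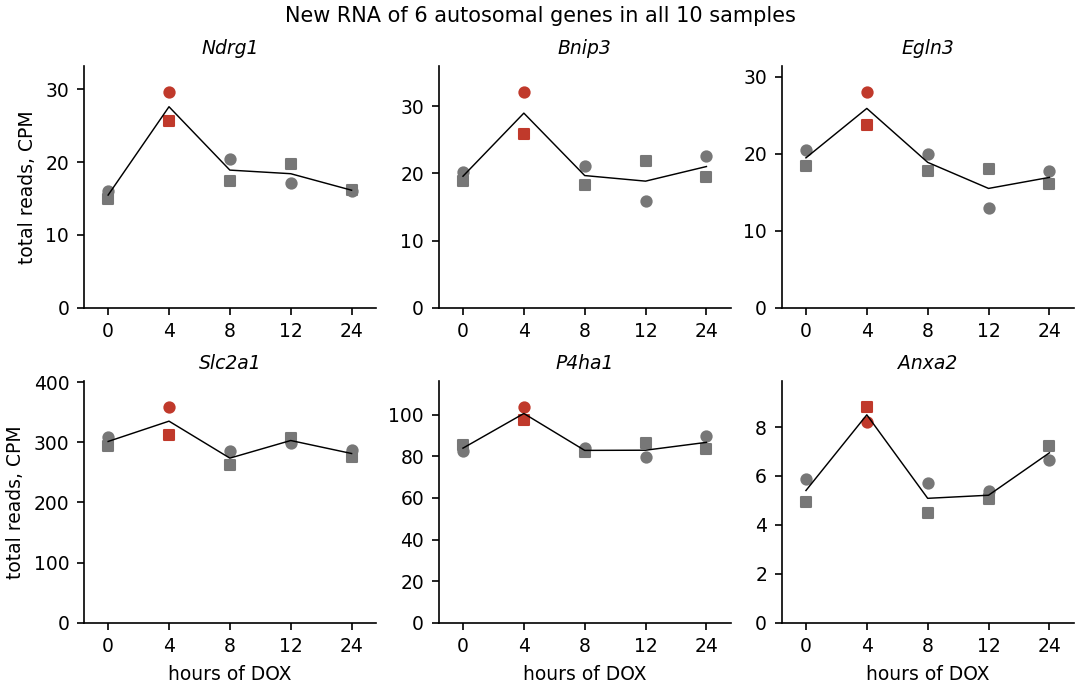
Total reads of 6 autosomal genes are given in CPM (vertical axes, from 0) for all 10 samples over hours of DOX (horizontal axes, not to scale), with circles for replicate 1, squares for replicate 2, 4 h in red and a line through the means. The 6 genes were chosen after their values were seen, so the pattern is no independent evidence. In each panel both red points lie above every grey point, as for Ndrg1 with 29.6 and 25.6 CPM at 4 h and 14.9 to 20.4 CPM elsewhere.

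The promoter of Bnip3 is shown because hypoxia-inducible factors bind a short core, ACGTG or GCGTG, which reads CACGT or CACGC on the other strand. The 250 bases before its start are from RefSeq (GRCm38.p6), chr7:138909507-138909756 on the minus strand, with matches in capitals.
Bnip3: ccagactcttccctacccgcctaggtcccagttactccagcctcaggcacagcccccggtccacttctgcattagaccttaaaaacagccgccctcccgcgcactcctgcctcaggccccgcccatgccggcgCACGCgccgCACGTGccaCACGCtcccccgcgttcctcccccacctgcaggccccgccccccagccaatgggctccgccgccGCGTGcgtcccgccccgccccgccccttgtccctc
It held 5 matches, 2 of which overlap in one palindrome. A core this short is common. It was found in 38.6% of the 27025 promoters of this length, in 14 of the 20 promoters of the glycolysis and hypoxia list that were in the table, and in 166 of 310 X-linked promoters, Kdm6a among them with 3 matches. The core itself holds a CG. The median number of CG dinucleotides was 6 over all promoters, 13.5 in the list and 12 in the X-linked ones. The part that this number has in the matches was not tested.

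The single autosomal gene past the threshold for the B6 share was Atxn10, on chromosome 15, which encodes ataxin 10. Its d-score was 0.471 and 0.477 at 0 h and 0.515 and 0.535 at 4 h, an increase of 0.30 in the log2 ratio (SE 0.07, adjusted p = 0.0200, edgeR). The groups were apart, but DESeq2 did not call it and the adjusted p was 0.143 to 0.701 without 0 h replicate 1, 0 h replicate 2 or 4 h replicate 2. Its total level overlapped between the groups, 407 and 409 CPM at 0 h against 383 and 435 CPM at 4 h. Its mean d-score was 0.507 after 8 h and 0.494 after 24 h.

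Genes of mitochondrial translation and stress, on which DOX could act, gave no call. Over all 14525 genes tested 0.0138% passed, and 0.895% were higher and 1.2% lower unadjusted, so 0 calls in lists of this size is near those shares. Of 77 mitochondrial ribosomal protein genes 0 passed by edgeR and 1 was lower at an unadjusted p under 0.05 (Mrps26, 8.04 and 6.93 CPM, then 6.33 and 4.92 CPM). The median change was -0.06, with 52 of 77 negative, where 48.9% of all autosomal genes were. Of 30 nuclear genes of oxidative phosphorylation 0 passed and 0 did so unadjusted, with a median of -0.07 and 22 negative changes. Of 14 mitochondrial chaperones and proteases 0 passed by either threshold, with a median of -0.03 and 9 negative changes. Of 26 genes of the integrated stress response, the pathway through ATF4 that mitochondrial stress engages, 0 passed by either threshold and 13 were positive. The one with the smallest p was Cebpb, with 0.527 and 0.456 CPM at 0 h and 0.957 and 0.881 CPM at 4 h (change 0.92, SE 0.46). The largest change below 0 was -0.25. DESeq2 and limma voom also called only Ndrg1 among autosomal genes. The median SE of a change over autosomal genes was 0.13. Even a change like that of Bnip3, 0.58 with an SE of 0.14, did not pass without the replicate block. Changes of single genes that were small against their SE were not detectable by this test.

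The remaining lists gave no call at the adjusted threshold either, which 0.0138% of all genes passed. Heat shock genes (17 tested), ER folding genes (18), immediate early genes (19), p53 targets (18), oxidative stress genes (14) and cholesterol synthesis genes (19) had 0 genes past either threshold by edgeR, with medians from -0.07 to 0.03. Of these, 16 of 19 cholesterol synthesis genes and 12 of 14 oxidative stress genes had negative changes, where 48.9% of all autosomal genes did. So did 13 of 17 heat shock genes, 13 of 19 immediate early genes, 11 of 18 ER folding genes and 6 of 18 p53 targets. The 24 pluripotency genes and 14 formative or primed state genes gave 0 calls with a median of -0.01 each. Proteins that act with Xist (21 genes, median 0.04) and Polycomb subunits (25 genes, median 0.02) gave 0 calls as well. Among Xist cofactors Smchd1 was at 314 and 336 CPM at 0 h and 344 and 345 CPM at 4 h, and among Polycomb genes Ezh2 was at 264 and 288 CPM and then 284 and 306 CPM. Markers of primitive endoderm (11 tested), trophectoderm (7) and fibroblasts (8) had 0 genes past either threshold by edgeR, and all 7 trophectoderm markers had negative changes (median -0.22). The 2-cell-like markers gave 2 of 8 tested genes lower at an unadjusted p under 0.05, where 1.2% of all genes were lower. These were Zscan4a and Zscan4c, at 0.0518 to 1.28 CPM in all libraries. Of the autosomal genes that were lower, the smallest p values were those of Farsa (44.2 and 42.1 CPM, then 35.4 and 34.0 CPM), Atxn2l (84.8 and 80.6, then 72.1 and 64.3 CPM), Gga3 (73.7 and 67.1, then 60.2 and 56.6 CPM), Mapk7 and Prrc2a, and each had an adjusted p of 1.00 by edgeR.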

How the data were processed

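TT-seq of TX1072 cells at 0, 4, 8, 12 and 24 h of DOX gave 10 libraries, 2 per time, grouped by their labels. The study calls the replicates biological duplicates; the labels do not say that they came from separate cultures, so p-values measure the spread between these samples, which may be technical. Per the study's methods, the authors trimmed reads with Cutadapt, aligned them with STAR to mm10 with strain variants masked, assigned read pairs to alleles with SNPSplit and counted them by strand with featureCounts 1.5.1 over the longest span of each gene. The submitters' processing notes name TopHat2 2.1.0, bedtools and featureCounts instead, and which aligner made these files was not settled. The deposited values are raw counts of all, B6 and Cast reads per gene, and a fraction, the d-score, for genes with at least 10 allelic reads. Spike-in RNA was not used for scaling, so changes are relative to the other genes of a library.

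From the counts, edgeR 4.0.16 (R 4.3.3) quasi-likelihood fits over all 10 libraries tested 4 h minus 0 h, two-sided, with Benjamini-Hochberg adjustment over all genes tested and a threshold of 0.05. Total counts were filtered by filterByExpr and scaled by TMM (14525 of 24386 genes). The B6 share was the log2 ratio of B6 to Cast counts, fitted with an intercept per sample (11906 genes, each with 10 or more allelic reads in all libraries). B6 and Cast counts alone were scaled to autosomal reads of the same allele. The 8 h against 4 h contrast came from the same fit. Medians were compared by an exact permutation test, whose smallest p is 0.33. For total counts, libraries of the same replicate number deviated together from their group means between all 10 pairs of times (correlations 0.169 to 0.359). Correlations above 0.1 numbered 9 of 10 for B6 counts, 6 for Cast counts and 0 for the log2 B6 to Cast ratio. The main fits did not include the replicate number and so left this pairing out. The replicate block, which takes it in, was run as an alternative. Wilson intervals cover counting error only. The fits recovered known changes in simulated counts. Those changes were larger than most seen here and the counts had no shared replicate effects, so recovery of smaller changes was not checked.

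Genes named in the text are Xist, the study's examples and the Xist neighbours, the 12 largest falls of the B6 share among genes past the threshold with at least 50 allelic reads, the 6 smallest changes among X-linked genes with at least 500, autosomal genes past any threshold, the 5 autosomal genes with the smallest p in each direction, and up to 4 genes of each list by p. Any others were named after their values were seen, and the lists and members were chosen with earlier results of these data known. Alternatives were other filters, scalings, tools (DESeq2 1.42.0, limma 3.58.1), the replicate block, adjustment within X-linked and autosomal genes apart, fits to the 4 libraries alone and leaving out each library. RefSeq promoter windows were used for 27025 genes. The values of 1 gene that met the rule for named genes are not reported here.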

Additional observations from a re-analysis of the deposited data

How the results depend on the processing

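The fall in the median d-score of X-linked genes kept its direction under all alternatives run, as did that of X-linked B6 reads, which was -0.322 percentage points without the 10 X-linked genes with most reads. Cast X-linked reads reversed to -0.0294 percentage points without 0 h replicate 1 (range over single libraries left out -0.0294 to 0.238).

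X-linked genes lower in B6 share numbered 13 by DESeq2, 89 with X-linked and autosomal genes adjusted apart, 51 with the replicate block and 22 to 33 with 1 library left out. Autosomal genes higher were 0 by DESeq2, 0 with adjustment apart and 0 to 1 with 1 library left out, and 1 was lower with the block. Replicate numbers did not go with deviations of this ratio.

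X-linked genes lower in B6 count numbered 7 by limma voom, 28 with the replicate block, 46 with adjustment apart and 1 to 4 with 1 library left out. Autosomal genes numbered 3 lower and 2 higher with the block, and 0 to 2 higher with 1 library left out. For the Cast count the block gave 2 autosomal genes higher.

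For total counts 1 X-linked gene was lower without a filter, by DESeq2, with the block and with adjustment apart, and 0 to 1 were lower with 1 library left out. Autosomal genes higher were 0 with at least 50 reads per sample, 3 with the block and 0 with any 1 library left out. For 8 h against 4 h, 3 autosomal genes were higher with the block, and with 1 library left out 0 to 2 were lower and 0 to 3 higher. Why these counts moved was not tested, beyond that leaving out a library leaves 1 sample in its group, assumed to vary as the others do. Of the values of named genes and medians under alternatives, 1824 kept their side of the threshold and moved little, 99 moved, 43 gained a call and 46 lost one.

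Of the 120 X-linked genes with the fewest allelic reads, 0 passed the B6 share test, and the part that depth has in the gene counts was not tested.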
